A study of Mus musculus with 32 samples.

Results

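Nuclear genes of respiratory complex I were followed in whole mouse bladders across age and treatment. The set held 39 genes, namely 35 subunits and the 4 assembly factors Ndufaf1 to Ndufaf4, taken by gene symbol as nuclear genes of the complex, in a choice made with earlier results of these data known. All 39 were matched among the 32285 genes of the count table. All bladders came from female C57BL/6 mice, and each library was made from a single bladder by total RNA sequencing. Of the mice without treatment, 6 were young, at 2 months, 5 were middle-aged, at 10 months, and the 6 called untreated old had reached 26 months. A further 15 mice of 26 months had been gavaged on 3 days of each month from 21 to 26 months of age with water (n = 5), with a drug-free lipid, polyethylene glycol and ethanol vehicle (n = 4), or with D+Q in that vehicle (n = 6). D+Q is the senolytic pair dasatinib, a kinase inhibitor given at 5 mg/kg per day, and quercetin, a plant flavonoid given at 50 mg/kg per day.

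Complex I is the entry point of the respiratory chain. It takes electrons from NADH in its N module, passes them along iron-sulfur clusters to ubiquinone in its Q module, and pumps protons through a membrane arm with a proximal and a distal part. The membrane core is encoded by mitochondrial DNA, while every subunit described here is encoded in the nucleus and imported, so that a complete complex needs both genomes. Assembly factors help to build the complex and are absent from the finished enzyme.

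The libraries held 15088372 to 52650259 counts. Levels are given as CPM (counts scaled by library size, with TMM factors over all 6 groups), and a floor of 3 counts was worth 0.0570 to 0.199 CPM, for counting error only. The lowest count of any member in any bladder was 167, so every member was above the floor and was tested in every comparison. Smooth muscle markers summed to 26578 to 42048 CPM and urothelial markers to 4398 to 5703 CPM in the 32 bladders, so both main tissues of the bladder wall were present. Young replicates 3 and 4 were the shallowest libraries, with 15088372 and 16881598 counts. Each had 31 members above the highest middle-aged bladder. For comparisons with young bladders, the count of calls and the median of the members are given with and without them. In 5 of the 6 groups the shallowest bladder also had the highest mean level of the members. No sequencing batch is named in the sources used here, so values within batches were not computed.

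Most members are short genes. Their summed exon length ranged from 419 bases in Ndufa1 to 8086 bases in Ndufs1, with a median of 1718 against 4304.5 bases over genes with at least 1 CPM, and 34 of the 39 lay below that median. As TPM (transcript levels scaled per length) in middle-aged bladders, Ndufa2 had the highest level, with 357, 358, 389, 393 and 382 TPM. Ndufb11 followed with 354, 337, 340.3, 351 and 353 TPM and did not overlap with Ndufa2, while Ndufb9, with 322, 315, 341, 331 and 298 TPM, overlapped with Ndufb11. Ndufa2 is an accessory subunit of the N module, and Ndufb9 and Ndufb11 belong to the distal membrane arm.

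The lowest levels were those of 2 assembly factors and 1 subunit. Ndufaf2, a late assembly factor, had 12.4, 10.1, 10.9, 10.8 and 9.67 TPM. Ndufaf4, which acts with Ndufaf3 while the Q module is attached, had 17.7, 18.8, 17.6, 15.8 and 16.7 TPM. Ndufb2, a small subunit of the distal arm, had 21.2, 20.1, 20.1, 20.1 and 18.6 TPM, although its summed exon length of 5628 bases counts exons of every annotated transcript and so lowers its TPM. The highest mean TPM was 34.9 times the lowest. Of the 38 pairs of neighbours in the order of levels, 24 had overlapping ranges, so most single steps in that order were within the spread between bladders.

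The spread within groups differed between members and between groups. In percent of the middle-aged mean, the SD of the members' mean level ran from 2.33 in untreated old to 9.48 in D+Q-treated bladders, with 9.38 in young ones. The SD of log2 CPM between bladders of one group, pooled over the 6 groups, ranged from 0.05 for Ndufs1, the largest iron-sulfur subunit of the N module, to 0.16 for Ndufa2, with a median of 0.12, or 8.31% of the level. Exons of 14 members overlap a gene on the other strand, and 0 overlap one on the same strand. The 14 are Ndufs1, Ndufs6, Ndufa2, Ndufs3, Ndufa9, Ndufa3, Ndufa11, Ndufa13, Ndufb2, Ndufb5, Ndufb6, Ndufb11, Ndufaf2 and Ndufaf3. The library kit keeps strand, but the setting used in counting was not given, so reads of an overlapping partner cannot be told apart for those 14. The members lie on 16 chromosomes.

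The promoters of some members share short sequences. RefSeq windows of 250 bases before and 50 bases after the transcription start (GRCm38.p6) were found for 36 members, of which 2 have a pair of windows. Ndufa2, Ndufs1 and Ndufb9 were not matched. Each window was searched on both strands for GCGCATGC, the core site of the transcription factor NRF1, for CCGGAAG, the core of ETS family sites such as that of GABP, and for AAGATGGC, the core site of YY1. NRF1 and GABP are known regulators of nuclear respiratory genes. The YY1 letters stood in 7 of 36 members, or 19.4%, against 3.19% of 27025 genes with a window. The NRF1 letters stood in 4 members, or 11.1%, against 3.05% of genes, and the ETS letters in 5 members, or 13.9%, against 9.93%. No member held more than 1 of the 3 motifs, and 20 held none. A match is a description of the letters and was not tested as a binding site.

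All 7 matches to the YY1 letters lay on the sense strand after the start, a position in which 1.04% of genes held them. In each of the 7 the ATG inside the motif is an annotated start codon in GENCODE M21. The 7 sites are shown because they are the sequence that the largest number of members shared. The capitals mark the motif, and each line gives 30 bases, 5′ to 3′ on the strand of the gene.
Ndufc1, chr3:51408915-51408944, minus strand: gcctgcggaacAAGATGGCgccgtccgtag
Ndufa9, chr6:126849097-126849126, minus strand: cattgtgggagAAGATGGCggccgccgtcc
Ndufa3, chr7:3617384-3617413, plus strand: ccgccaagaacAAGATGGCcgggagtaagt
Ndufs7, chr10:80249462-80249491, plus strand: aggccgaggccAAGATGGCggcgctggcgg
Ndufs6, chr13:73328433-73328462, minus strand: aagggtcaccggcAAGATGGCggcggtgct
Ndufs4, chr13:114388045-114388074, minus strand: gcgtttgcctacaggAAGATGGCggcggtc
Ndufb8, chr19:44555393-44555422, minus strand: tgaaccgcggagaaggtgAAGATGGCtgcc

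A pair of promoters with the NRF1 letters is shown because their genes had fold changes of opposite sign in untreated old against middle-aged bladders, although the call of Ndufaf4 was lost in most other fits, as described further on. Ndufa6 is an accessory subunit of the Q module. Each line gives the 120 bases before the RefSeq start, with the motif in capitals on either strand. For Ndufa6 the gene as counted starts further upstream, so the last of these bases lie inside its span. In Ndufaf4 a match on one strand overlaps a match on the other, and a further sense match begins at base 2 after the start, outside the stretch shown.
Ndufa6, chr15:82354292-82354411, minus strand: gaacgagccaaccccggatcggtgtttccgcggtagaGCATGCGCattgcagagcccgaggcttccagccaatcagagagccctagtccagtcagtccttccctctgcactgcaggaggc
Ndufaf4, chr4:24897963-24898082, plus strand: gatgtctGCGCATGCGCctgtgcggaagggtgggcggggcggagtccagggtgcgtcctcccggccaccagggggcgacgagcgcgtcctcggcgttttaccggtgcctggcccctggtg

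**Figure D1:**
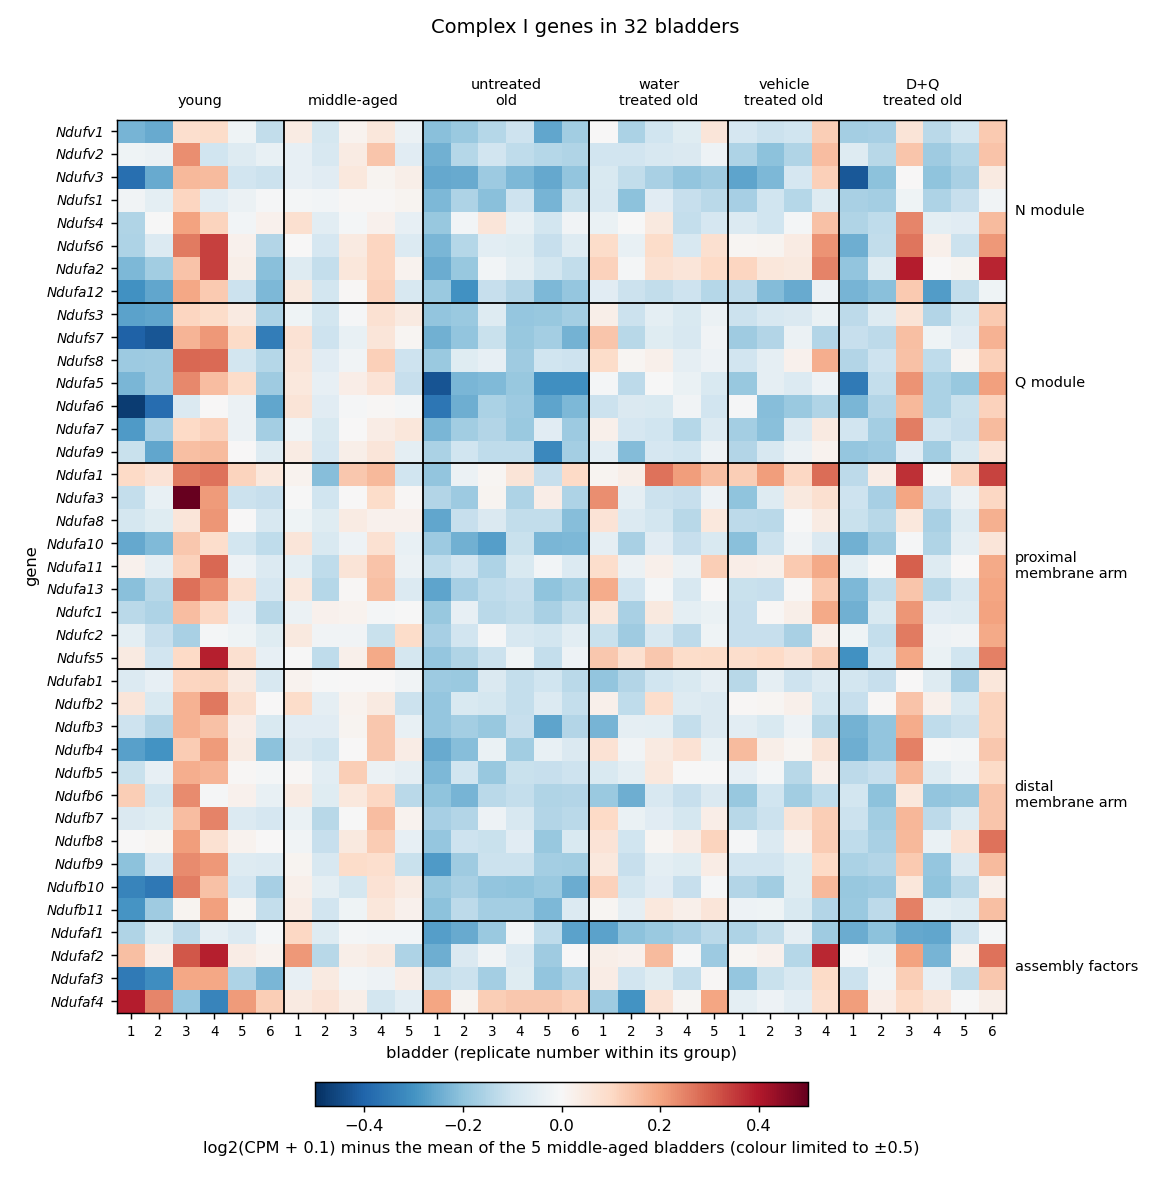
Level of each of the 39 genes (rows, by place in the complex) in each of the 32 bladders (columns, numbered within their group), as log2(CPM + 0.1) minus the mean of the 5 middle-aged bladders. Blue is below and red above that mean, and the 6 untreated old bladders are mostly blue, while young replicates 3 and 4 and D+Q replicates 3 and 6 are mostly red.

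The first question was how these genes change over the life span. Between middle-aged and untreated old bladders, 22 of the 39 genes fell and 1 rose with a Benjamini-Hochberg adjusted p under 0.05 (edgeR's quasi-likelihood test over 17156 genes). Over all genes tested, 11.0% were called lower and 13.0% higher. The falls were small. The median log2 fold change of the members was -0.13, a difference of -8.46%, against -0.005 over all genes, and every one of the 35 subunits had a negative fold change, from -0.26 to -0.007. In 17 members the 6 untreated old bladders lay wholly below the 5 middle-aged ones, against 8.18% of all genes. In whole tissue, fewer cells with many mitochondria and less RNA per cell cannot be told apart.

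The mean level of the members in each bladder shows how even the difference was. Taking the middle-aged mean as 100%, the middle-aged bladders stood at 101.3%, 95.1%, 101.3%, 104.6% and 97.97%, and the untreated old bladders at 86.7% to 93.1% with a median of 90.8%. The groups did not overlap. Untreated old replicate 1 was the lowest of all 32 bladders, with 36 members below the lowest middle-aged bladder. The members summed to 5476 ± 115 TPM (SD, n = 5) in middle-aged and 4868 ± 243 TPM (SD, n = 6) in untreated old bladders. The lowest of these sums was 4498 TPM in untreated old replicate 6, whose mean level in CPM was 91.3%. As a mean over 572 genes of up to 1000 bases, log2 levels stood 0.65 to 1.46 above the middle-aged mean in untreated old bladders. Replicate 6 was the highest. The mean over bladders was 0.85 in untreated old, 0.74 in water-treated, 0.79 in vehicle-treated and 0.89 in D+Q-treated bladders. Most short genes did not rise in this way. From middle to old age, the median log2 fold change of genes of up to 2096 bases was -0.02. For the 9 members of up to 1000 bases it was -0.10. The part of short genes in the TPM sums was not tested.

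**Figure D2:**
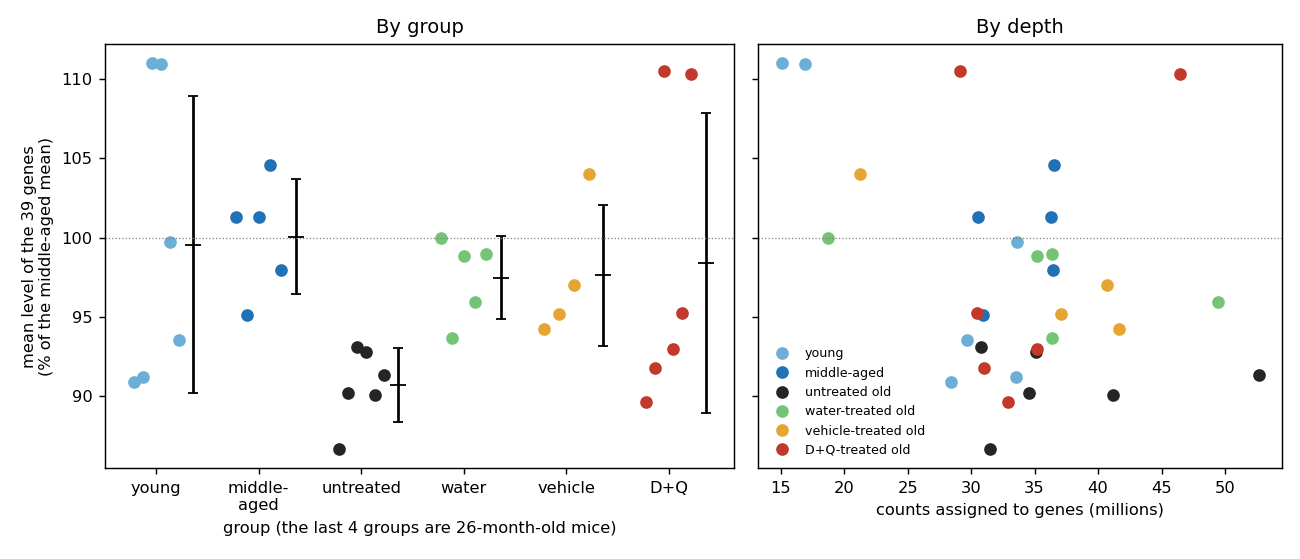
Mean level of the 39 genes in each bladder, in percent of the middle-aged mean, by group (left, bars: mean ± SD) and against the counts assigned to genes (right). The untreated old bladders lie at 86.7% to 93.1%, below all middle-aged, water-treated and vehicle-treated bladders, while 3 of the 6 D+Q-treated bladders lie in the same range.

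In the N module, 5 of 8 members fell and 3 did not pass the test, with a median log2 fold change of -0.14. Ndufv3, a small subunit beside the site of NADH oxidation, had 67.4, 66.7, 71.9, 69.9 and 70.8 CPM in middle-aged bladders and 58.0 to 61.0 CPM in untreated old bladders (median 58.8). Every old bladder was below every middle-aged one, and the log2 fold change was -0.20 ± 0.03 (SE, adjusted p = 0.00026 in edgeR), the smallest p of the set. In mm10 the gene spans chr17:31520115-31531331. Ndufv1, the subunit that binds NADH, had 121, 111, 119, 122 and 115 CPM against 98.1 to 109 CPM (median 104), again without overlap, with a log2 fold change of -0.16 ± 0.03 (SE, adjusted p = 0.0057).

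Ndufs1 was the most evenly expressed member. It had 91.8, 91.7, 92.8, 93.0 and 93.4 CPM in middle-aged bladders and 78.8 to 86.2 CPM (median 81.6) in untreated old bladders, with a log2 fold change of -0.15 ± 0.03 (SE, adjusted p = 0.0029 in edgeR). Its groups did not overlap, but its exons overlap those of Eef1b2 and Ino80dos on the other strand. Ndufv2, an iron-sulfur subunit, and Ndufa12 fell as well, by 0.13 and 0.17 on the log2 scale. Ndufs4, an accessory subunit needed for a stable N module, was the member nearest to no change there, with a log2 fold change of -0.02 ± 0.04 (SE), and Ndufs6 and Ndufa2 did not pass the test either.

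The Q module had the highest share of falls. Of its 7 members, 6 fell, with a median log2 fold change of -0.15, and Ndufs8, an iron-sulfur subunit, had -0.09 ± 0.04 (SE, adjusted p = 0.15 in edgeR). Ndufa5, an accessory subunit, had the largest fall of all 39. It had 54.0, 50.6, 53.3, 54.5 and 48.0 CPM in middle-aged bladders against 38.5 to 45.6 CPM (median 43.2) in untreated old bladders. These did not overlap, and the log2 fold change was -0.26 ± 0.05 (SE, adjusted p = 0.0018 in edgeR), or -16.3%. The gene spans chr6:24518666-24528013 (mm10).

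Ndufa6, whose promoter is printed above, had 89.0, 81.9, 84.6, 85.4 and 84.5 CPM against 66.1 to 76.2 CPM (median 72.3), with a log2 fold change of -0.22 ± 0.04 (SE, adjusted p = 0.0010 in edgeR) and no overlap. It spans chr15:82350140-82354322 (mm10). Ndufs7, which carries the last iron-sulfur cluster before ubiquinone, had 67.9, 60.0, 62.9, 67.3 and 65.0 CPM against 54.7 to 59.8 CPM (median 56.4), with a log2 fold change of -0.17 ± 0.04 (SE, adjusted p = 0.0050). The highest old bladder of Ndufs7 was just under the lowest middle-aged one. Ndufs3, a core subunit at the base of this module, had 68.3, 65.2, 69.1, 73.1 and 71.6 CPM against 60.5 to 66.3 CPM (median 60.9), and its ranges overlapped through untreated old replicate 3 alone.

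For Ndufs3 the log2 fold change was -0.15 ± 0.04 (SE, adjusted p = 0.0097 in edgeR). Ndufa7 had 80.9, 77.8, 82.1, 84.1 and 85.3 CPM in middle-aged bladders against 70.0 to 78.9 CPM (median 72.5) in untreated old bladders, with a log2 fold change of -0.14 ± 0.03 (SE, adjusted p = 0.0076) and overlap of a single old bladder. Ndufa9, an accessory subunit at the junction with the membrane arm, also fell, by 0.14 on the log2 scale.

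In the proximal membrane arm 4 of 9 members fell, with a median log2 fold change of -0.08. Ndufa10, an accessory subunit on the matrix side, had 87.4, 79.6, 82.4, 88.3 and 81.8 CPM in middle-aged and 69.3 to 77.6 CPM (median 71.6) in untreated old bladders. The gene spans chr1:92439010-92473860 (mm10). The groups did not overlap and the log2 fold change was -0.19 ± 0.04 (SE, adjusted p = 0.0026 in edgeR). Ndufa8, Ndufa13 and Ndufc1 fell by 0.13, 0.15 and 0.11 on the log2 scale. Ndufa1, the shortest gene of the set, had -0.007 ± 0.07 (SE), the value nearest to 0 among the subunits, and Ndufa3, Ndufa11, Ndufc2 and Ndufs5 had -0.07, -0.07, -0.06 and -0.08.

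In the distal membrane arm 7 of 11 members fell, with a median log2 fold change of -0.12. Ndufb10 had 81.4, 77.4, 75.2, 84.1 and 82.5 CPM in middle-aged and 67.4 to 71.5 CPM (median 70.0) in untreated old bladders, which did not overlap, and its log2 fold change was -0.18 ± 0.03 (SE, adjusted p = 0.0015 in edgeR). Ndufab1, the acyl carrier protein that is also a subunit, Ndufb3, Ndufb5, Ndufb6, Ndufb9 and Ndufb11 fell by 0.11 to 0.16 on the log2 scale. The 4 members of this arm that did not pass the test, Ndufb2, Ndufb4, Ndufb7 and Ndufb8, had values of -0.09, -0.11, -0.10 and -0.10, close to those that did.

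Of the 4 assembly factors 0 fell and 1 rose. Ndufaf4 (chr4:24898083-24905001, mm10) had 19.8, 20.2, 19.7, 18.1 and 18.6 CPM in middle-aged and 19.5 to 22.1 CPM (median 21.1) in untreated old bladders. These ranges overlapped, and the log2 fold change was 0.14 ± 0.05 (SE, adjusted p = 0.044 in edgeR), close to the threshold. The call was lost in 9 of 11 fits that left out a single bladder, with the likelihood ratio test, without a filter on low counts, with all 6 groups in a single fit and with limma, and the sign turned (-0.02) with water-treated in place of untreated old bladders. Ndufaf1, which helps to build the membrane arm, had a log2 fold change of -0.16 ± 0.06 (SE, adjusted p = 0.055), Ndufaf3 had -0.11 ± 0.04 (SE, adjusted p = 0.073) and Ndufaf2 had -0.08 ± 0.08 (SE, adjusted p = 0.52). Of 14 other assembly factors of complex I, 1 was called, Ndufaf8, at -0.18 ± 0.05 (SE, adjusted p = 0.025), and their median was -0.01.

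**Figure D3:**
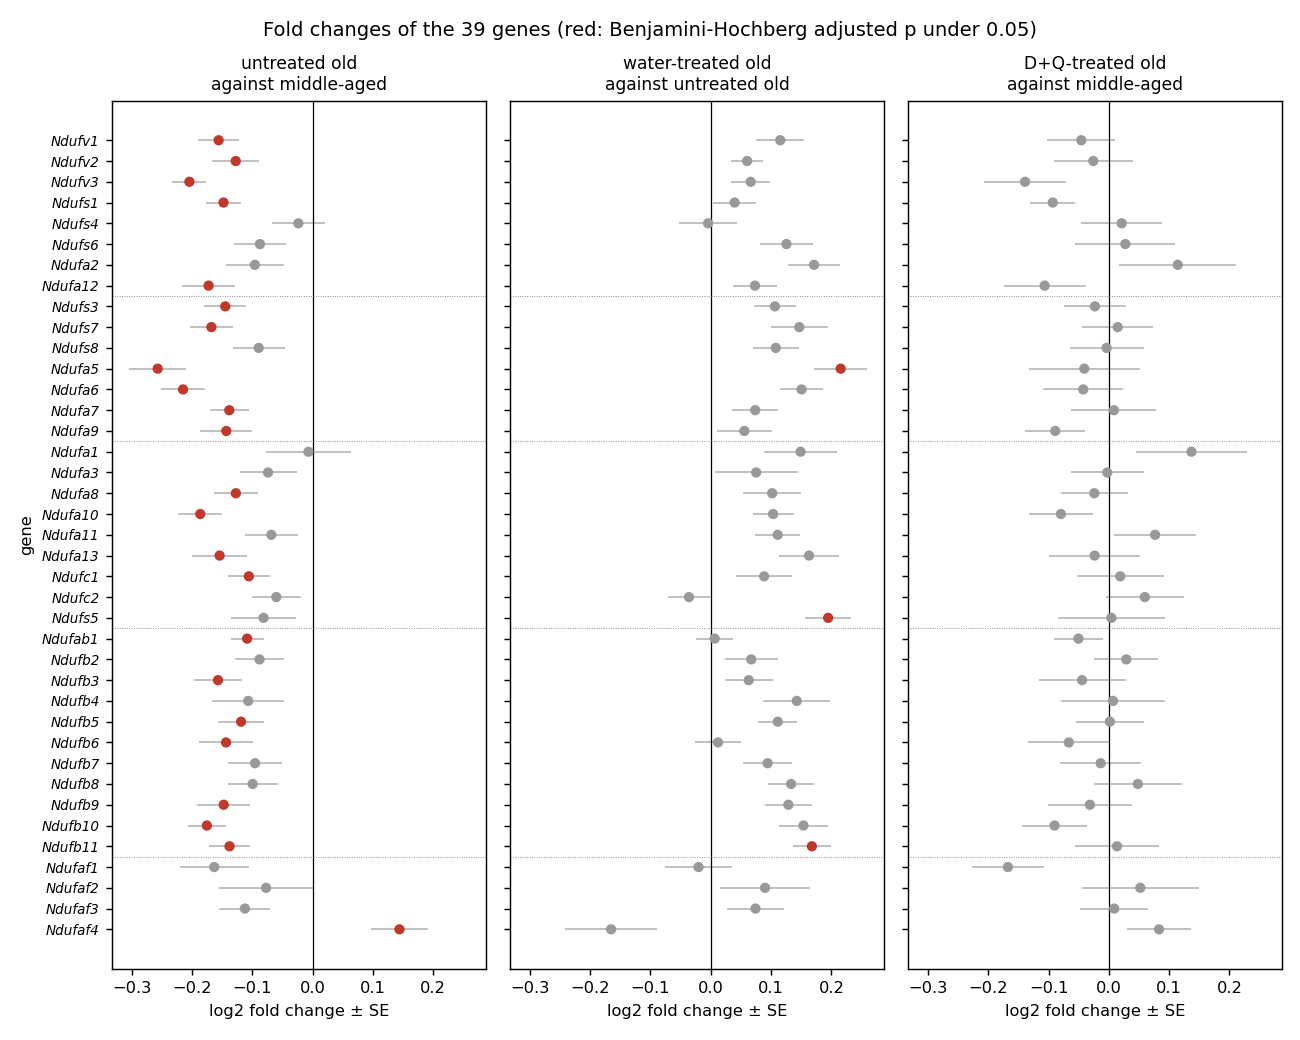
Log2 fold change with its standard error for each of the 39 genes (rows, by place in the complex) in untreated old against middle-aged (left), water-treated against untreated old (middle) and D+Q-treated old against middle-aged bladders (right). Red points had a Benjamini-Hochberg adjusted p under 0.05, which were 23 of 39 on the left (22 below 0 and Ndufaf4 above 0), 3 in the middle and 0 on the right.

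The number of calls changed with the fit. With all 6 groups in a single fit, which shares one estimate of the spread, 5 members were called, all lower, namely Ndufs1, Ndufa10, Ndufaf1, Ndufa6 and Ndufa5. In that fit 4.98% of all genes were called lower. All 15 calls of edgeR's likelihood ratio test were lower, against 7.97% of all genes, as were all 15 without middle-aged replicate 3, against 8.68%. DESeq2 called 22 members lower and 1 higher, against 9.31% of all genes called lower, and limma on log2(TPM + 1) called 26 lower, against 13.9%. The median of the members was -0.11 without untreated old replicate 1. With limma it was -0.17, where the median of all genes was also lower, at -0.04. With genes split into 5 classes by length, the median of all genes ran from -0.02 in the shortest to 0.01 in the longest class, while 24 members of the shortest class had a median of -0.13 and 9 of the next class -0.14. Among the 25 members without overlapping exons, 15 fell and 1 rose. Of the promoters searched above, 3 of the 7 with the YY1 letters, 2 of the 4 with the NRF1 letters and 2 of the 5 with the ETS letters belonged to genes that fell.

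Other nuclear genes of energy metabolism had similar medians in this comparison. Of the lists examined, 2 of 4 members of complex II fell (median log2 fold change -0.10), 7 of 9 of complex III (-0.13), 7 of 11 of complex IV (-0.13), 7 of 15 of the ATP synthase (-0.12) and 7 of 12 of the tricarboxylic acid cycle (-0.11), and 0 rose. The largest of these falls was that of Cox6c, a subunit of complex IV, at -0.31 ± 0.04 (SE, adjusted p = 0.00015 in edgeR). Of 7 complex I subunits encoded in the mitochondria 1 fell, mt-Nd4 at -0.16 ± 0.05 (SE, adjusted p = 0.027). Of 11 regulators of mitochondrial biogenesis, among them Nrf1, Gabpa and Yy1, 0 were called, 0 had an unadjusted p under 0.05 in edgeR, and their median was 0.005. The median over 81 ribosomal protein genes, also short and highly expressed, was -0.07, and 7 of them fell.

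Markers of cell types were read beside the 11.0% of all genes called lower and the 13.0% called higher in this comparison. All 8 leukocyte markers rose, with a median log2 fold change of 2.92, and their summed level was 277.9 to 332 CPM in middle-aged and 511 to 751 CPM in untreated old bladders. Of the smooth muscle markers 3 of 9 fell, of the urothelial markers 3 of 9, of the fibroblast markers 1 of 5, of the endothelial markers 1 of 3 and of the Schwann cell markers 1 of 3. Of the skeletal muscle markers 1 of 6 rose and 1 fell, and of the adipocyte markers 0 of 5 were called. The part of these shifts in the fall of the complex I genes was not tested. Leukocyte markers also stood higher in gavaged old than in middle-aged bladders. With water 8 of 8 were called, with vehicle 5 of 8 and with D+Q 8 of 8. Over all genes, 8.02%, 3.02% and 7.58% were called higher in these comparisons.

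The 15 gavaged mice of 26 months gave the same age contrast, in which age and gavage cannot be told apart. With no batch named, a batch that went with a group cannot be told apart from it either. Against the same middle-aged bladders, 2 members fell in water-treated old bladders, Ndufv3 at -0.14 ± 0.04 (SE, adjusted p = 0.033 in edgeR) and Ndufaf1 at -0.19 ± 0.05 (SE, adjusted p = 0.036), where 5.23% of all genes were called lower. In vehicle-treated old bladders 0 were called, against 1.52% of all genes called lower, and 6 members had an unadjusted p under 0.05. In D+Q-treated old bladders 0 were called, against 4.55%, and 2 members had an unadjusted p under 0.05. The median log2 fold changes of the members were -0.03, -0.03 and -0.004, against -0.13 in untreated old bladders. The 4 comparisons share their middle-aged bladders, and these 3 were added after the data were seen.

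The levels of single bladders show what lay behind these medians. In percent of the middle-aged mean, the water-treated bladders stood at 99.98%, 93.6%, 98.8%, 95.97% and 98.97%, and the vehicle-treated ones at 94.2%, 95.2%, 97.01% and 104.02%, all of them above the highest untreated old bladder. The D+Q-treated bladders split into 4 at 89.6% to 95.3% and replicates 3 and 6 at 110.5% and 110.3%. Replicate 3 was the shallowest of its group, with 29098617 counts, whereas replicate 6 was the deepest, with 46477640. Both also stood high for ribosomal protein genes, at 0.30 and 0.26 above the middle-aged mean on the log2 scale, against -0.07 to 0.06 in the other 4.

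A second question was what gavage and drug changed in mice of one age. In water-treated against untreated old bladders 3 members rose and 0 fell, where 0.487% of all genes were called higher. Ndufb11 had 90.5, 87.1, 93.3, 91.5 and 93.8 CPM against 77.0 to 85.6 CPM (median 79.9) in untreated old bladders, with a log2 fold change of 0.17 ± 0.03 (SE, adjusted p = 0.029 in edgeR). It spans chrX:20615326-20617619 (mm10), and its exons overlap those of Rbm10 on the other strand. Ndufs5 (chr4:123712710-123718202, mm10), an accessory subunit on the outer face of the membrane arm, had 36.5, 35.2, 36.6, 35.4 and 35.6 CPM against 29.1 to 32.8 CPM (median 30.8), with 0.19 ± 0.04 (SE, adjusted p = 0.036). Ndufa5 had 51.6, 47.5, 52.0, 50.9 and 49.3 CPM against 38.5 to 45.6 CPM, with 0.22 ± 0.04 (SE, adjusted p = 0.045), the highest fold change of the set.

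None of these 3 genes had overlapping groups, and 35 of the 39 members had positive fold changes, with a median of 0.10 against 0.001 over all genes. Ndufaf4 was at the other end, with 17.0, 15.6, 20.3, 19.4 and 22.1 CPM against 19.5 to 22.1 CPM and a log2 fold change of -0.17 ± 0.08 (SE, adjusted p = 0.31 in edgeR). The 3 calls were fragile. DESeq2 called 6 members, all higher, against 1.80% of all genes. The likelihood ratio test called 0, against 0.499% of all genes called higher, and so did the fit without a filter on low counts, against 0.179%. With all 6 groups in a single fit and with limma 0 members and 0 of all genes were called, so these zeros say nothing particular about the members. Leaving out untreated old replicate 1, 2, 3 or 5, or water-treated replicate 1, 3, 4 or 5, also gave 0, leaving out untreated old replicate 6 gave 1, and leaving out water-treated replicate 2 gave 4.

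**Figure D4:**
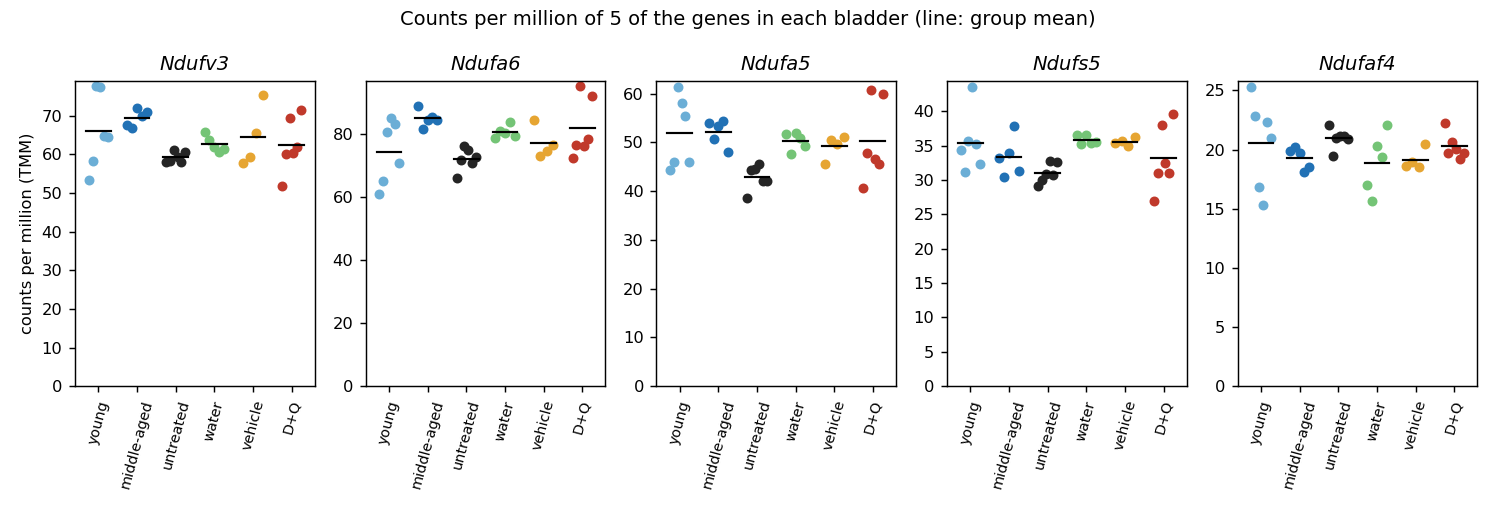
CPM (TMM-scaled, axes from 0) of Ndufv3, Ndufa6, Ndufa5, Ndufs5 and Ndufaf4 in each bladder, by group, with lines at the group means. For Ndufs5 the 5 water-treated bladders (35.2 to 36.6) and the 4 vehicle-treated bladders (34.9 to 36.3) lie above all 6 untreated old bladders (29.1 to 32.8), and the 6 D+Q-treated bladders spread from 26.9 to 39.6.

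Vehicle-treated against untreated old bladders gave 0 calls in edgeR, among the members and among all 17440 genes (0%), although 18 members had an unadjusted p under 0.05, 17 of them higher. DESeq2 called 2, Ndufs5 and Ndufa2, both higher, against 1.02% of all genes called higher. The median log2 fold change was 0.10, and 37 of 39 were positive. Ndufa2 had 66.1, 63.7, 63.5 and 72.9 CPM against 51.5 to 60.8 CPM (median 56.9), without overlap, and its log2 fold change was the highest, at 0.23 ± 0.06 (SE, adjusted p = 0.34 in edgeR). Its exons overlap those of Tmco6 on the other strand. Ndufaf4 was again the lowest, with 18.6, 18.9, 18.5 and 20.4 CPM against 19.5 to 22.1 CPM and -0.14 ± 0.06 (SE, adjusted p = 0.55).

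D+Q-treated against untreated old bladders also gave 0 calls among the members and among all 17037 genes (0%), with DESeq2 and limma calling 0 of the members as well. An unadjusted p under 0.05 was found for 16 members, all higher, and the median log2 fold change was 0.13, with 38 of 39 positive. Ndufa5 was the highest, with 40.7 to 60.8 CPM (median 47.2) against 38.5 to 45.6 CPM and a log2 fold change of 0.23 ± 0.09 (SE, adjusted p = 0.34 in edgeR). Its highest values were those of replicates 3 and 6, replicates 2 and 4 lay just above the untreated range, and replicates 1 and 5 lay within it. Ndufaf4 was the lowest, with 19.2 to 22.3 CPM (median 19.9) and -0.05 ± 0.05 (SE, adjusted p = 0.64).

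The 22 members that fell with age in untreated bladders had positive fold changes in all 3 of these comparisons. Their median log2 fold changes were 0.10 with water, 0.09 with vehicle and 0.12 with D+Q. These comparisons share the untreated old bladders with each other and with the age comparison, where those bladders are on the low side, so a positive sign here is not independent of the fall. Ndufs1, for example, had log2 fold changes of 0.04, 0.05 and 0.07 in the order given, with 80.4 to 91.5 CPM in the 15 gavaged bladders against 78.8 to 86.2 CPM in the untreated old ones, and these ranges overlapped.

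The direct test of the drugs, D+Q-treated against vehicle-treated old bladders, gave 0 calls (0% of 17267 genes), and 0 members had an unadjusted p under 0.05. The same test against water-treated bladders gave 0 calls (0% of 17161 genes) and 1 member with an unadjusted p under 0.05. DESeq2 and limma called 0 members in both. The medians were 0.02 and 0.02 on the log2 scale. The standard errors had a median of 0.08 and 0.07, so that for the typical member 2 standard errors spanned 0.16 and 0.14 either way, and a difference of the size seen with age would lie inside that span. Ndufc2 was the highest in both, with 45.3 to 58.9 CPM (median 48.5) after D+Q against 45.4, 45.4, 44.0 and 50.1 CPM with vehicle and 45.5, 43.5, 46.6, 44.9 and 48.5 CPM with water. Its log2 fold changes were 0.15 ± 0.08 (SE, adjusted p = 0.99 in edgeR) and 0.16 ± 0.06 (SE, adjusted p = 0.58), and all groups overlapped.

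Ndufs5 was the lowest in both drug comparisons. It had 26.9 to 39.6 CPM (median 31.8) after D+Q, against 35.4, 35.7, 34.9 and 36.3 CPM with vehicle and 35.2 to 36.6 CPM with water. The log2 fold changes were -0.09 ± 0.09 and -0.10 ± 0.08 (SE, adjusted p = 0.99 and 0.81 in edgeR). The SD of this gene was 0.635 CPM with water and 0.558 CPM with vehicle but 4.75 CPM after D+Q, and 4 of the 6 D+Q bladders lay below every water- and vehicle-treated bladder, whereas replicates 3 and 6 lay above them.

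Transcripts of the mitochondrial genome had the opposite sign to the nuclear ones with water and vehicle. In water-treated against untreated old bladders 3 of the 7 mitochondrially encoded subunits fell, and their median log2 fold change was -0.29. Among all genes, 0.516% were called lower and 0.487% higher in that comparison. For mt-Nd2, a core subunit of the membrane arm named here after its values were seen, the mean was 1850.1 ± 135 CPM (SD, n = 5) against 2392 ± 158 CPM (SD, n = 6), with a log2 fold change of -0.39 ± 0.06 (SE, adjusted p = 0.014 in edgeR). With vehicle the median was -0.33 and 0 were called, although all 7 had an unadjusted p under 0.05, and with D+Q it was -0.01. Ribosomal protein genes moved in the direction of the nuclear subunits and further, with 54 of 80 higher with water and medians of 0.20, 0.19 and 0.18 with water, vehicle and D+Q. Their part in the values of the complex I genes was not tested. In the shortest of the 5 length classes, all genes had medians of 0.03, 0.04 and 0.06 in these comparisons.

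**Figure D5:**
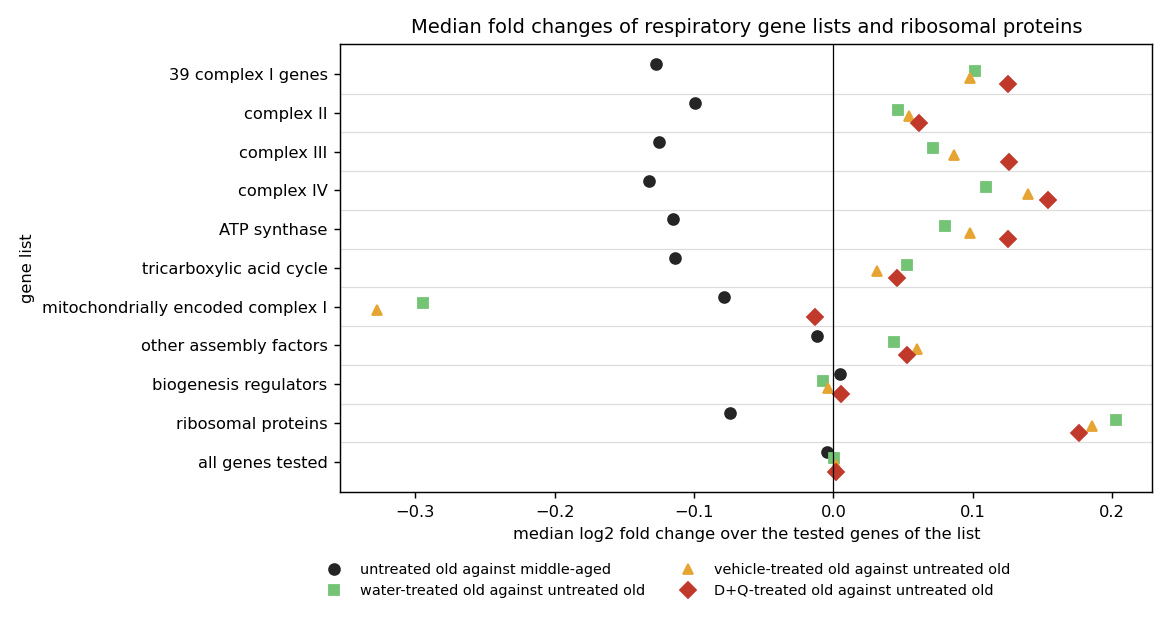
Median log2 fold change over the tested genes of each list (rows) in 4 comparisons (symbols). The 39 complex I genes lie at -0.13 with age and at 0.10 to 0.13 in the 3 gavaged groups against the shared untreated old bladders, near the lists of complexes III and IV and the ATP synthase, while the 7 mitochondrially encoded subunits lie at -0.29 and -0.33 with water and vehicle.

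Earlier in life no difference was called. In middle-aged against young bladders 0 of 39 members passed the test, where 10.8% of all genes did, 1 had an unadjusted p under 0.05, and DESeq2 and limma called 0. The median log2 fold change was -0.007. Ndufa6 had the highest value, with 89.0, 81.9, 84.6, 85.4 and 84.5 CPM in middle-aged and 61.1 to 85.1 CPM (median 75.9) in young bladders and a log2 fold change of 0.19 ± 0.08 (SE, adjusted p = 0.16 in edgeR). Ndufaf2 had the lowest, with 10.6, 8.27, 9.30, 9.42 and 8.19 CPM against 9.22 to 12.0 CPM (median 9.75) and -0.16 ± 0.10 (SE, adjusted p = 0.32).

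The young bladders had a wide spread. In percent of the middle-aged mean they stood at 90.9%, 91.2%, 111.0%, 110.9%, 99.7% and 93.6%, the 2 shallow libraries being the 2 highest. Without those 2 bladders 7 of 39 members were called, against 22% of all genes, so their share was not above that of all genes. Ndufa6, Ndufaf3, Ndufb10, Ndufa12, Ndufv3 and Ndufa10 were then higher in middle-aged than in young bladders, with log2 fold changes of 0.16 to 0.27, Ndufaf4 was lower at -0.26 ± 0.07 (SE, adjusted p = 0.020 in edgeR), and the median of the 39 was 0.07. Young replicates 1, 2 and 6, the lowest for the members, were also low for ribosomal protein genes, at -0.29, -0.29 and -0.22 on the log2 scale.

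Over the whole span, untreated old against young bladders, 10 members fell and 0 rose, where 12.4% of all genes were called lower. The median log2 fold change was -0.14, but with the 2 shallow young bladders left out it was -0.04 and 5 of 39 members fell, namely Ndufs1, Ndufb8, Ndufb6, Ndufv2 and Ndufb2. In that fit 14.7% of all genes were called lower, so the members' share was not above it. Leaving out untreated old replicate 1 gave 4 calls, where 10.1% of all genes were called lower. Leaving out young replicate 3 or untreated old replicate 2, 5 or 6 gave 6, where 9.8% to 11.9% were. Of the 10 calls, 6 were in the distal membrane arm. Ndufa5, Ndufa8 and Ndufaf2 were called beside Ndufs1 outside it, and Ndufaf2, at -0.25 ± 0.08 (SE, adjusted p = 0.043 in edgeR), was the only assembly factor. Ndufs1 had 89.3 to 99.9 CPM (median 91.0) in young and 78.8 to 86.2 CPM in untreated old bladders, without overlap, and a log2 fold change of -0.16 ± 0.04 (SE, adjusted p = 0.0075 in edgeR).

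Ndufb8, a distal subunit that is widely used as a marker of assembled complex I, had 93.6 to 108 CPM (median 94.5) against 81.8 to 89.8 CPM (median 86.8), also without overlap, and -0.17 ± 0.04 (SE, adjusted p = 0.010 in edgeR). Ndufb6 had 29.4 to 36.9 CPM (median 31.5) against 26.6 to 28.8 CPM (median 28.2), with -0.21 ± 0.05 (SE, adjusted p = 0.014) and no overlap. Ndufb2 had 30.5 to 38.5 CPM (median 33.8) against 28.1 to 30.7 CPM (median 29.9), with -0.19 ± 0.05 (SE, adjusted p = 0.019), and overlapped slightly. Ndufab1 had 65.3 to 74.6 CPM (median 69.1) against 60.6 to 65.6 CPM (median 63.1), with -0.14 ± 0.04 (SE, adjusted p = 0.026) and a slight overlap. Without the 2 shallow young bladders Ndufb8, Ndufb6 and Ndufb2 had -0.13, -0.17 and -0.12, and Ndufab1 was not called.

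At the ends of the range, Ndufa5 had 44.4 to 61.4 CPM (median 50.7) in young against 38.5 to 45.6 CPM in untreated old bladders, with a log2 fold change of -0.27 ± 0.08 (SE, adjusted p = 0.026 in edgeR). It was not called without the 2 shallow young bladders. Ndufaf4 had 15.3 to 25.3 CPM (median 21.7) in young bladders, and its log2 fold change of 0.02 ± 0.10 (SE, adjusted p = 0.90) turned to -0.12 without the 2 shallow libraries, which held its 2 lowest values. Of the 4 modules, with the 2 shallow libraries included, the distal arm had the lowest median here, at -0.17, and the Q module the highest, at -0.10. From middle to old age the Q module had the lowest median. That change of order was not tested.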

How the data were processed

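Whole bladders of 32 female mice in 6 groups were measured by bulk RNA sequencing. The authors aligned reads to mm10 with STAR 2.7.3 and counted them per gene with the Subread package. They deposited raw counts, the summed exon length of each gene (the other unit) and a table of log2 values, whose linear values, the deposited length-scaled counts plus 1, sum to 100000 per bladder. The strand setting of counting was not given in the sources used here.

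Of 32285 gene identifiers, 32158 had a symbol in GENCODE M21. Groups were compared with edgeR 4.0.16 in R 4.3.3: genes were filtered with filterByExpr, scaled by TMM and tested by quasi-likelihood, and p-values were adjusted over all genes tested (Benjamini-Hochberg, called under 0.05). Each of 8 fits held only its 2 groups. CPM used TMM factors over all 6 groups, and the TPM printed used counts and the summed exon lengths. The TPM in the limma fits was instead 10 times the linear deposited values. Mean levels used log2(CPM + 0.1). Totals were 15088372 to 52650259 counts. Simulated data with known changes were used to test the code before use. Alternatives were DESeq2 1.42.0, RLE factors, the likelihood ratio test, no filter, a minimum of 10 counts per bladder, 1 fit of all groups, limma 3.58.1 on log2(TPM + 1) and log2(TPM + 0.1), a replicate block and leaving out each bladder. The gavaged groups against middle-aged bladders and the fits without the 2 shallowest young bladders were added after the data were seen. Promoter windows came from RefSeq. No bladders in a group had identical counts.

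The members and gene lists were chosen with earlier results of these data known. Values by bladder are given for the 10 called members with the smallest p in untreated old against middle-aged bladders, up to 5 called members in each other comparison, the highest and lowest fold change of each comparison, and the 3 highest and 3 lowest members by TPM. From each other list, named genes are the called genes with the highest and lowest fold change in untreated old against middle-aged bladders or after D+Q against no treatment (the latter gave none). P-values measure the spread between single bladders.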

Additional observations from a re-analysis of the deposited data

Results flagged for a closer look

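Single bladders stood apart from the rest of their group for 3 of the 58 groups of member values examined, where chance alone flags about 1 in 20. Ndufb8 was at 108 CPM in young replicate 3, against 93.6 to 98.7 CPM in the other 5 young bladders, and Ndufs1 was at 99.9 CPM in the same bladder, against 89.3 to 92.3 CPM in the others. This library was the shallowest of the series, and leaving it out gave 6 calls, in place of 10, in untreated old against young bladders. Of all genes, 11.9% in place of 12.4% were then called lower. Ndufs3 was at 66.3 CPM in untreated old replicate 3, against 60.5 to 61.6 CPM in the other 5, and was the only reason why its untreated old and middle-aged ranges overlapped.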

How the results depend on the processing

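Of 165 recomputed counts of called members, 134 stayed within 1.5 times the count reported. For untreated old against middle-aged bladders (23), the count was 15 with the likelihood ratio test, 5 with all 6 groups in a single fit, and 15 to 24 when single bladders were left out. In these fits 7.97%, 4.98% and 8.68% to 10.9% of all genes were called lower, and 12%, 8.94% and 10.9% to 13% higher. With gavaged old bladders in place of the untreated ones it was 2 (water), 0 (vehicle) and 0 (D+Q), and 2 (water), 1 (vehicle) and 5 (D+Q) of the 22 members that fell then had positive fold changes. Among the genes given by bladder for this comparison, signs turned for Ndufaf4 (-0.0234 with water), Ndufs7 (0.0147 with D+Q) and Ndufa7 (0.0084 with D+Q). For untreated old against young bladders (10), leaving out single bladders gave 4, without untreated old replicate 1, to 12, and leaving out the 2 shallowest young bladders gave 5. Of all genes, 9.8% to 13.1% and 14.7% were called lower in these fits. Ndufaf4 there ranged from -0.0467 to 0.0911 when single bladders were left out, being negative without young replicate 3 (-0.0260) or 4 (-0.0467), and was -0.1208 without both. Middle-aged against young bladders went from 0 to 7 without the same 2 bladders, while the share of all genes called went from 10.8% to 22%. For water-treated against untreated old bladders (3), DESeq2 gave 6, and the likelihood ratio test, no filter on low counts, all 6 groups in a single fit and limma with either pseudocount gave 0, the last 3 of these fits also calling 0 of all genes, while leaving out single bladders gave 0 to 4. For vehicle-treated against untreated old bladders (0), DESeq2 gave 2, both higher, where 1.02% of all genes were called higher. A larger fit has another estimate of the spread; for the other changes the cause was not tested.

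With the replicate number as a block, the replicate block fit called 15 members in untreated old against middle-aged bladders, all lower. In that fit 6.85% of all genes were called lower. The block fit called 0 members and 0 of all genes in water-treated against untreated old bladders, and no other count moved by over 1.5 times. The numbers were those of the sample titles. The sample descriptions number some middle-aged, water-treated and vehicle-treated libraries differently, and pairing by those numbers was not tested. Bladders with the same title number correlated at -0.38 to 0.26 in their deviations from the group means. In no comparison was every pair over 0.1. The pairs over 0.1 ran from 0 of 4 in vehicle-treated against untreated old to 3 of 4 in D+Q-treated against vehicle-treated old bladders. With deviations from means of so few bladders, these values cannot show whether the bladders were paired.

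Most changes described were small and came from groups of 4 to 6 bladders. A member without a call is therefore not shown to be unchanged.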
